A study of Mus musculus with 2 samples.

Results

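The S100 genes described here encode small calcium-binding proteins, and they were read in haematopoietic stem cells (HSCs) sorted from mouse bone marrow. The 8 genes are S100a1, S100a4, S100a6, S100a8, S100a9, S100a10, S100a11 and S100a13, taken by symbol from a table of 54531 genes by a rule that names the genes and sets no threshold on their values. Control HSCs came from mice of genotype Angptl2fl/fl, in which both copies of Angptl2, encoding a secreted angiopoietin-like protein, are floxed. The other mice, Cdh5-Cre;Angptl2fl/fl, had in addition Cre under the Cdh5 promoter, which is active in endothelium. They are labelled as deficient in Angptl2 in endothelial cells, and nothing in the labels tells whether the gene was intact in HSCs. With 1 library per genotype, below named control HSCs and deletion HSCs, differences have no replicate check and no p-values, and each comparison is between these 2 libraries. The control sample's description and column name read Cdh5 and Cre without a floxed allele, against its genotype label, so it is unsettled whether those mice had Cre. The sources used here do not give the age or number of mice or the sort markers.

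S100 proteins are among the smallest members of the EF-hand superfamily, a large group of calcium-binding proteins. Most form dimers, and binding of calcium opens a surface that grips a target protein, such as an annexin or a myosin heavy chain. S100A8 and S100A9 pair to form calprotectin, which fills the cytosol of neutrophils, binds zinc and manganese, and acts as an inflammatory signal once released. In bone marrow both are used as markers of cells committed to the granulocyte and monocyte lines rather than of HSCs.

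The values are FPKM, the fragments of a gene per kilobase of its exons and per 1000000 fragments in total. FPKM multiplied by exon length fell within 0.02 of a whole number of fragments for 96.5% of the genes above 0 in control HSCs and 96.1% in deletion HSCs, at depths of 17378619 and 16843115 fragments. The 7 S100 genes above 0 all came out whole. The plain ratio of each of these 7 is therefore given with a 95% counting interval, an exact Clopper-Pearson interval on the fragments of both libraries. For a ratio of 1 gene to another, where an interval is given, it is the exact conditional interval of the odds ratio. These intervals cover counting error only, and neither the spread between mice nor the choice of scaling. Angptl2 itself stood at 0.27 FPKM in control HSCs and 0.18 FPKM in deletion HSCs, from 29 and 19 fragments, too few to check the genotype labels. Of 10 HSC markers, 8 reached a mean of 1 FPKM, and all 8 were lower in deletion HSCs, with a median log2(FPKM + 1) ratio of -0.19. Kit was the highest, at 54.3 FPKM in control HSCs and 48.8 FPKM in deletion HSCs. Others were low, such as Mecom at 1.67 and 1.36 FPKM in the same order. Slamf1 and Hoxb5 stayed under a mean of 1 FPKM. Markers of later myeloid and erythroid cells were abundant. The 5 promyelocyte markers summed to 1021 FPKM in control HSCs and 2681 FPKM in deletion HSCs. The 5 erythroid markers, mostly Car1, summed to 1622 FPKM in control HSCs and 1949.9 FPKM in deletion HSCs.

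Calprotectin mRNAs dominated the family in both libraries and were lower in deletion HSCs, S100a9 more so than S100a8. S100a6 was 4.43-fold lower there, S100a1 was 1.98-fold higher, and S100a10, S100a11 and S100a13 lay within 1.16-fold of the control level. S100a4 was listed at 0 in both. Summed over the family, S100 mRNA was at 1643 FPKM in control HSCs and 1232 FPKM in deletion HSCs. S100a8 and S100a9 made up 88.5% of that sum in control HSCs and 83.0% in deletion HSCs, so the sum followed them. Without that pair it was 189.7 FPKM in control HSCs and 210.0 FPKM in deletion HSCs.

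**Figure D1:**
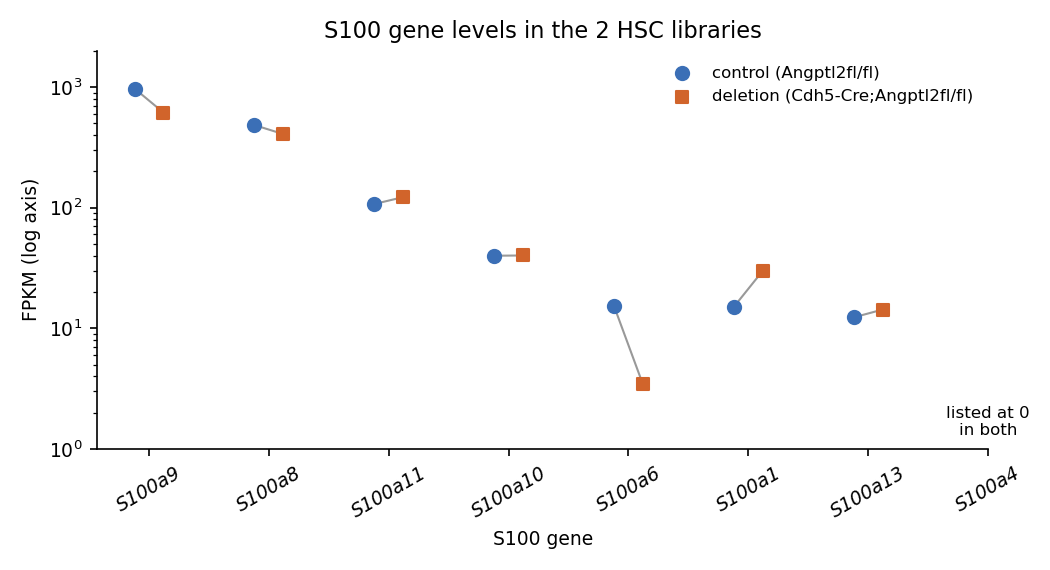
FPKM on a log axis for each of the 8 S100 genes, ordered by the control level, with a circle for control HSCs and a square for deletion HSCs (1 library each). The order runs from S100a9 at 970.2 FPKM to S100a13 at 12.3 FPKM in control HSCs, the S100a6 and S100a1 pairs slope in opposite directions, and S100a4 has no point because it was listed at 0 in both.

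Of the 8 genes, 7 had a mean of at least 1 FPKM, the minimum for counting. Of those 7, 1 was at least 2-fold lower in deletion HSCs on the log2(FPKM + 1) scale, which understates differences of low genes, and 0 were at least 2-fold higher. Among 10237 protein-coding genes with that mean, 0.752% were at least 2-fold lower, 0.488% at least 2-fold higher and 1.24% in either direction. Over all 12325 genes of any type these shares were 3.38%, 2.47% and 5.86%. The median log2 ratio of the 7 was 0.0067, against -0.014 for the protein-coding genes. The counting interval lay above equality for 2 of the 7 (S100a1 and S100a11) and below it for 3 (S100a6, S100a8 and S100a9). The same held for 27.4% and 31.5% of 9669 protein-coding genes with whole fragments, 58.9% in all, so an interval clear of equality was common at this depth.

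S100a9 (ENSMUSG00000056071, chromosome 3, 90692632 to 90695721, minus strand, GRCm38), the larger calprotectin subunit, was the most abundant of the family. It stood at 970.2 FPKM in control HSCs and 615 FPKM in deletion HSCs, from 8801 and 5408 fragments. This placed it at rank 24 among all genes of control HSCs and at rank 61 in deletion HSCs. The level was 36.6% lower in deletion HSCs, with a log2 ratio without pseudocount of -0.66 and a counting interval of -0.71 to -0.61. Of the 10237 protein-coding genes, 219 had a lower ratio.

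S100a8 (ENSMUSG00000056054, chromosome 3, 90668978 to 90670035, plus strand), the partner subunit, differed less. It stood at 484 FPKM in control HSCs and 407 FPKM in deletion HSCs, from 5832 and 4761 fragments, and its rank among all genes was 66 and 103. The level was 15.8% lower in deletion HSCs, with a log2 ratio of -0.25 (counting interval -0.30 to -0.19). Per unit of length control HSCs thus held 0.498 S100a8 for each S100a9, and deletion HSCs 0.662. These 2 values rest on exon lengths of 694 bases for S100a8 and 522 bases for S100a9. That within-library ratio was 1.33-fold higher in deletion HSCs, with a counting interval of 1.26 to 1.40, so the 2 subunits did not change in proportion between these libraries. In bulk RNA, fewer cells carrying these transcripts and less RNA per cell cannot be told apart.

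The stretches upstream of the starts of S100a8 and S100a9 are shown because these genes are the most abundant of the family. Both held a match to a core bound by C/EBP factors, which was not matched in the windows of 5 other members. That core is common, with a match in 40.7% of 32851 promoter windows, so the match does not set the 2 genes apart. Each is the 250 bases before the RefSeq start on GRCm38.p6, at chr3:90668821-90669070 on the plus strand for S100a8 and chr3:90695722-90695971 on the minus strand for S100a9. The GENCODE model of S100a8 starts at 90668978, inside the printed stretch. Capitals mark matches on either strand to TTNNGNAA (the core bound by C/EBP factors), GAGGAA (a core bound by PU.1) and TATAAA (the TATA box).
S100a8: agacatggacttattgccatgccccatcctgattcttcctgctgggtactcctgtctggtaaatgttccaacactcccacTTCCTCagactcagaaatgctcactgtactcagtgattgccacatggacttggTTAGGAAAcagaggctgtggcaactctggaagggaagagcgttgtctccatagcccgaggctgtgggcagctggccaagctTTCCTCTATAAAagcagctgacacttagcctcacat
S100a9: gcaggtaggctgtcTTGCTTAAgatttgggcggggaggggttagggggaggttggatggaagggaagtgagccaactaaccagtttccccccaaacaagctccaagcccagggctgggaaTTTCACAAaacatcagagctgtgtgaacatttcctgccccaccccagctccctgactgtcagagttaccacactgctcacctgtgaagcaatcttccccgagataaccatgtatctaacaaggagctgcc
In S100a8 the C/EBP core match began 117 bases upstream of the start, the PU.1 core matches 170 and 36 bases upstream, and the TATA box 30 bases upstream, directly after the nearer PU.1 match. In S100a9 the C/EBP core matches began 236 and 130 bases upstream, and a TATA box match lay at the start itself, beyond the bases printed. RefSeq windows of 300 bases (250 before the start and 50 after) were found for 7 of the 8 S100 genes. The C/EBP core was present in 2 of the 7, S100a8 and S100a9, and in 40.7% of 32851 windows of the same length. The PU.1 core was present in 3 of the 7 (S100a4, S100a8 and S100a11) and in 28.3% of all windows, and the TATA box in 3 (S100a4, S100a8 and S100a9) and in 13.6%. These are letter matches and no measure of binding.

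The transcription factors that bind such elements, and others of the neutrophil line, were read as a list of 8. All 8 reached the minimum, with 1 higher in deletion HSCs by 2-fold or more, 0 lower, and a median log2(FPKM + 1) ratio of 0.29. Gfi1, a repressor needed for neutrophil differentiation, was at 5.45 FPKM in control HSCs and 14.5 FPKM in deletion HSCs. Cebpa, which starts the granulocyte programme, was at 9.28 FPKM and 13.6 FPKM in the same order. Cebpb, used in emergency granulopoiesis, was the single gene with a ratio below 0, at 47.4 FPKM in control HSCs and 34.7 FPKM in deletion HSCs. Runx1 had the next lowest ratio, at 7.66 FPKM and 7.91 FPKM. With both scaled to a common total, 6 of the 8 were above 0.

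Other granulocyte markers differed too, mature neutrophil markers in the direction of the calprotectin genes and promyelocyte markers in the opposite one. All 10 mature neutrophil markers were lower in deletion HSCs, 9 of them at least 2-fold, with a median log2(FPKM + 1) ratio of -1.26 and a sum of 1109.7 FPKM in control HSCs and 433 FPKM in deletion HSCs. Ltf, the lactoferrin gene of secondary granules, was at 112 FPKM in control HSCs and 36.3 FPKM in deletion HSCs. The 5 promyelocyte markers were all at least 2-fold higher, between 2.57-fold and 2.95-fold. Of the 11 monocyte and macrophage markers 8 reached the minimum, 7 of them with a ratio below 0 and 4 at least 2-fold lower (6 with both scaled to a common total). The list summed to 309 FPKM in control HSCs and 160.2 FPKM in deletion HSCs. Most of that sum was Lyz2, at 242 FPKM in control HSCs and 86.1 FPKM in deletion HSCs. Ly6c2, the 1 marker with a ratio above 0, went the other way, from 30.4 FPKM in control HSCs to 60.8 FPKM in deletion HSCs. The part of these cell types in the S100 values was not tested.

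The calprotectin genes differed less than the granule genes did. Set against Ltf, S100a8 stood at 4.31 in control HSCs and 11.2 in deletion HSCs, a 2.61-fold difference with a counting interval of 2.45 to 2.78. Set against Ngp, the neutrophilic granule protein gene, S100a8 went from 1.06 in control HSCs to 2.32 in deletion HSCs. S100a9 set against Ltf was 1.96-fold higher in deletion HSCs (counting interval 1.85 to 2.08), and against Camp, the cathelicidin gene, 1.52-fold higher (1.42 to 1.63). Against Mpo, the myeloperoxidase gene of primary granules, the direction was the reverse, with S100a8 at 1.72 in control HSCs and 0.563 in deletion HSCs and S100a9 at 3.45 and 0.850. In these libraries S100a8 and S100a9 thus lay between the primary granule gene Mpo, which was higher in deletion HSCs, and the later granule genes Ltf, Ngp and Camp, which were lower.

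**Figure D2:**
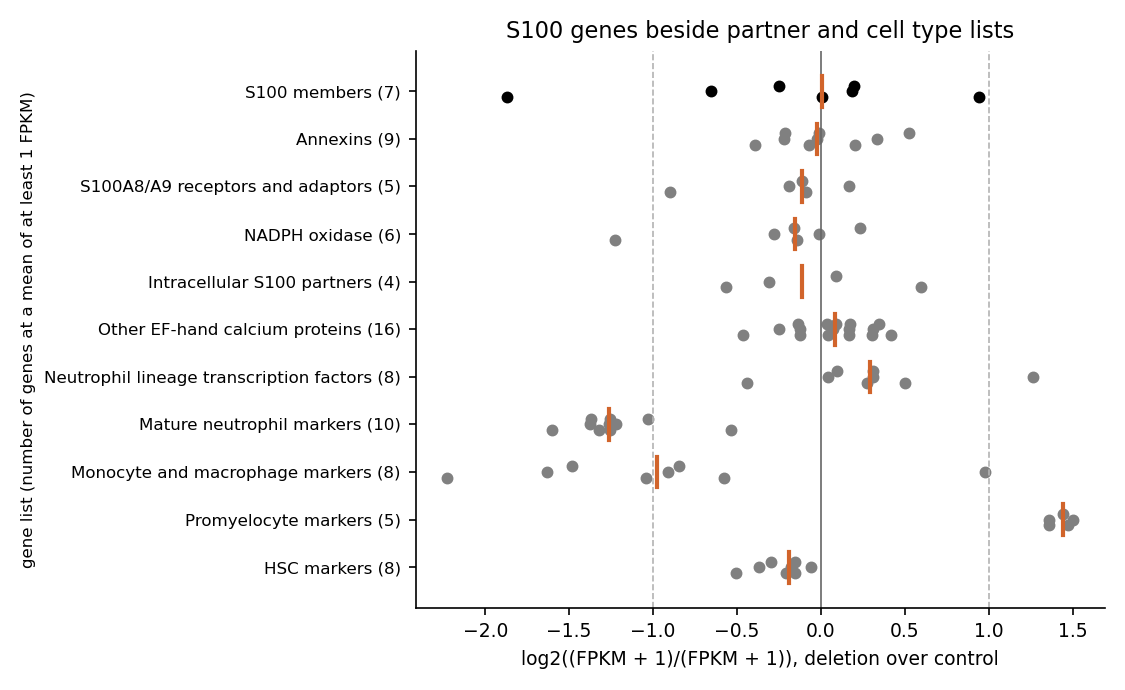
Log2((FPKM + 1)/(FPKM + 1)), deletion over control, for single genes (points) of each list with a mean of at least 1 FPKM, with the list median as a vertical bar and dashed lines at 2-fold. The S100 genes (black) spread from -1.87 to 0.94 around a median near 0, the mature neutrophil markers centre on -1.26 and the promyelocyte markers on 1.44.

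S100a6 (ENSMUSG00000001025, chromosome 3, 90612882 to 90624181, plus strand) showed the widest difference of the family. S100A6, or calcyclin, is a cytosolic member that binds annexins and the ubiquitin ligase adaptor CacyBP. Its level was 15.2 FPKM in control HSCs and 3.43 FPKM in deletion HSCs, from 361 and 79 fragments. This was a 4.43-fold lower level with a counting interval of 3.46 to 5.72, and a log2(FPKM + 1) ratio of -1.87. Only 6 of the 10237 protein-coding genes had a lower ratio. The mature neutrophil markers were 1.67-fold to 4.59-fold lower in the same comparison, and their part in the S100a6 value was not tested. The gene model holds a last exon of 455 bases that lies 9313 bases beyond the rest, out of 1367 exon bases. Without that exon in the length the levels would be 22.8 FPKM in control HSCs and 5.14 FPKM in deletion HSCs, with the same plain ratio.

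The bases upstream of the S100a6 start are shown for comparison with those of the calprotectin genes, since none of the 3 motifs was matched in its window. They are the 250 bases before the RefSeq start on GRCm38.p6, chr3:90612644-90612893, plus strand. The GENCODE model of S100a6 starts at 90612882, inside this stretch.
S100a6: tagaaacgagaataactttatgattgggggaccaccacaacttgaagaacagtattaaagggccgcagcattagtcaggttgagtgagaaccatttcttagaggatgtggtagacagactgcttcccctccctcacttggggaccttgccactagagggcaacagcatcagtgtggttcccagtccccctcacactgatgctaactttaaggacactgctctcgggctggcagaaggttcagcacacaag
The absence of capitals says only that those letters are not in this stretch.

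By level in both libraries, the protein-coding genes nearest to S100a6 (Euclidean distance of log2(FPKM + 1) over the 2 libraries) were Il1r2, the interleukin 1 decoy receptor, and Adam8, a metalloprotease of leukocytes. Il1r2 was at 16.3 FPKM in control HSCs and 3.89 FPKM in deletion HSCs, and Adam8 at 13.2 FPKM and 3.88 FPKM. For S100a8 the nearest were C1qtnf12 and the MHC class I gene H2-K1, at distances of 0.047 and 0.10. For S100a10 they were Tmem59 and Tatdn2, at 0.022 and 0.026. With 2 libraries, likeness in this sense means a like level and ratio and nothing more.

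S100a1 (ENSMUSG00000044080, chromosome 3, 90511034 to 90514392, minus strand) went the other way. S100A1 is best known as a regulator of calcium handling in heart and skeletal muscle. Its level was 15.1 FPKM in control HSCs and 29.9 FPKM in deletion HSCs, from 182 and 350 fragments. This was 1.98-fold higher, with a counting interval of 1.65 to 2.39, just short of 2-fold. On the log2(FPKM + 1) scale the ratio was 0.94, and 62 of the 10237 protein-coding genes had a higher one. S100a1 and S100a6 had almost the same level in control HSCs, whereas in deletion HSCs S100a1 was the higher.

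S100a13 (ENSMUSG00000042312, chromosome 3, 90514435 to 90524581, plus strand) starts back to back with S100a1, on the opposite strand. S100A13 takes part in the release of FGF1 and interleukin 1 alpha, which leave cells without a signal peptide. It stood at 12.3 FPKM in control HSCs and 14.3 FPKM in deletion HSCs, from 153 and 172 fragments, with a log2 ratio of 0.21 and a counting interval of -0.11 to 0.54 that includes equality. The level of S100a1 set against S100a13 was 1.23 in control HSCs and 2.10 in deletion HSCs. That difference was 1.71-fold, with a counting interval of 1.28 to 2.29, so this divergent pair did not differ in step. The interval between their RefSeq starts, chr3:90514331-90514434, is shown because both genes are transcribed away from it. It is 104 bases long, printed on the plus strand, and 42 bases lie between the starts in the GENCODE models.
S100a1-S100a13: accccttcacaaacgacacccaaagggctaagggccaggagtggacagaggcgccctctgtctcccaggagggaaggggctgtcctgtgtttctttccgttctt
No match to the 3 motifs was found in the window of either gene, which again says only that these letters are absent there.

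S100a11 and S100a10 lie together, away from the other genes of the family, on chromosome 3 at 93520488 to 93526287 and 93555080 to 93564643, both on the plus strand. S100a11 (ENSMUSG00000027907), whose protein binds annexin A1 and works in membrane repair, was the third most abundant of the family. It was at 107 FPKM in control HSCs and 122 FPKM in deletion HSCs, from 952 and 1052 fragments, with a log2 ratio of 0.19 and a counting interval of 0.061 to 0.32. With both scaled to a common total its log2(FPKM + 1) ratio was 0.041. S100a10 (ENSMUSG00000041959), the member that has lost calcium binding and sits in a fixed complex with annexin A2, was at 39.9 FPKM in control HSCs and 40.1 FPKM in deletion HSCs. Its 841 and 819 fragments gave a log2 ratio of 0.0069 and a counting interval of -0.13 to 0.15, so a difference above about 1.11-fold in either direction lay outside the interval. Rescaled to a common total, its ratio turned to -0.14, as the median of all genes moved from -0.011 to -0.16.

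**Figure D3:**
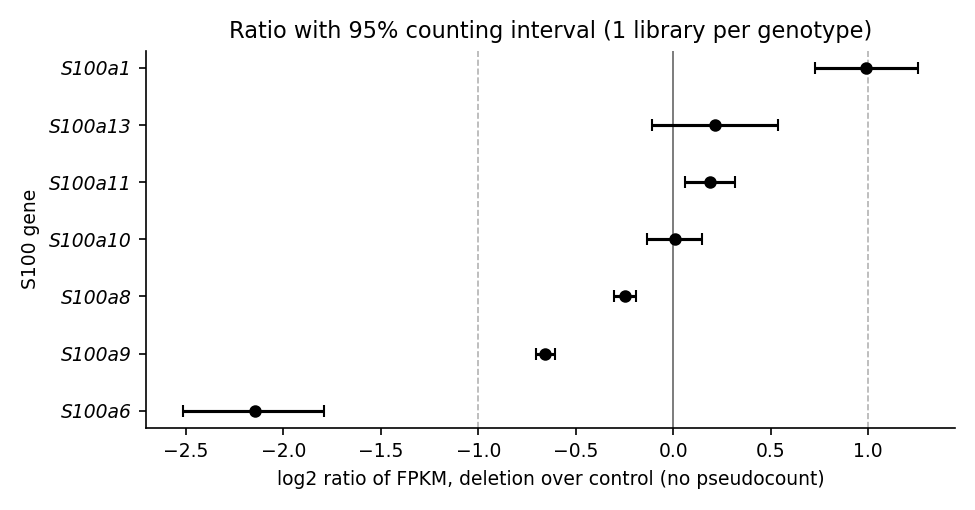
Log2 ratio of FPKM without pseudocount, deletion over control, for the 7 S100 genes above 0, with bars for the 95% counting interval and dashed lines at 2-fold. S100a6 lies beyond 2-fold at -2.15, S100a1 sits at 0.99, and the bars of S100a10 and S100a13 cross 0; the bars hold counting error only.

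S100a4 (ENSMUSG00000001020, chromosome 3, 90603771 to 90606045, plus strand), also called metastasin, binds non-muscle myosin heavy chain and is common in macrophages and T cells. It was listed at 0 in control HSCs and at 0 in deletion HSCs. Of its 584 exon bases, 302 (51.7%) are shared with exons of Gm42674, an overlapping gene model on the same strand, and Gm42674 was listed at 0 in both libraries too. Among 408 protein-coding genes with at least 50% of exon bases shared with a gene on the same strand, 62.0% were listed at 0 in both libraries, against 30.3% of the other 21587. Whether the overlap sets the value of S100a4 was not tested, and its 0 is not read here as absence of the transcript. No ratio is given for it.

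The other 9 S100 genes examined, S100a3, S100a5, S100a7a, S100a7l2, S100a14, S100a16, S100b, S100g and S100z, all had a mean under 1 FPKM, and 4 of them (S100a7a, S100a7l2, S100a16 and S100b) were listed at 0 in both libraries. The highest was S100z, at 0.72 FPKM in control HSCs and 0.45 FPKM in deletion HSCs, from 5 and 3 fragments. S100a3 was listed at 0 in control HSCs and had 10 fragments in deletion HSCs, a counting interval whose lower end, a log2 ratio of 1.21, lay above equality. The other genes of this group had at most 5 fragments in either library.

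Most S100 genes form one cluster on chromosome 3, and along it members with a clear signal lie between members at or near 0. S100a1 and S100a13 are at one end, beside Chtop (51.8 FPKM in control HSCs and 56.8 FPKM in deletion HSCs). S100a14, S100a16, S100a3, S100a2, S100a4 and S100a5 follow at or near 0. S100a6 then lies 98.5 kb from the start of S100a1, S100a7a at 0 comes next, and S100a8 and S100a9 lie 154.6 kb and 181 kb away. The 3 genes at that end, S100a6, S100a8 and S100a9, had ratios below 0, and the 2 at the S100a1 end had ratios above 0. S100a11 and S100a10 are about 3006 kb and 3041 kb from S100a1. Genes of one cluster are not independent of each other, and this is a description of position.

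**Figure D4:**
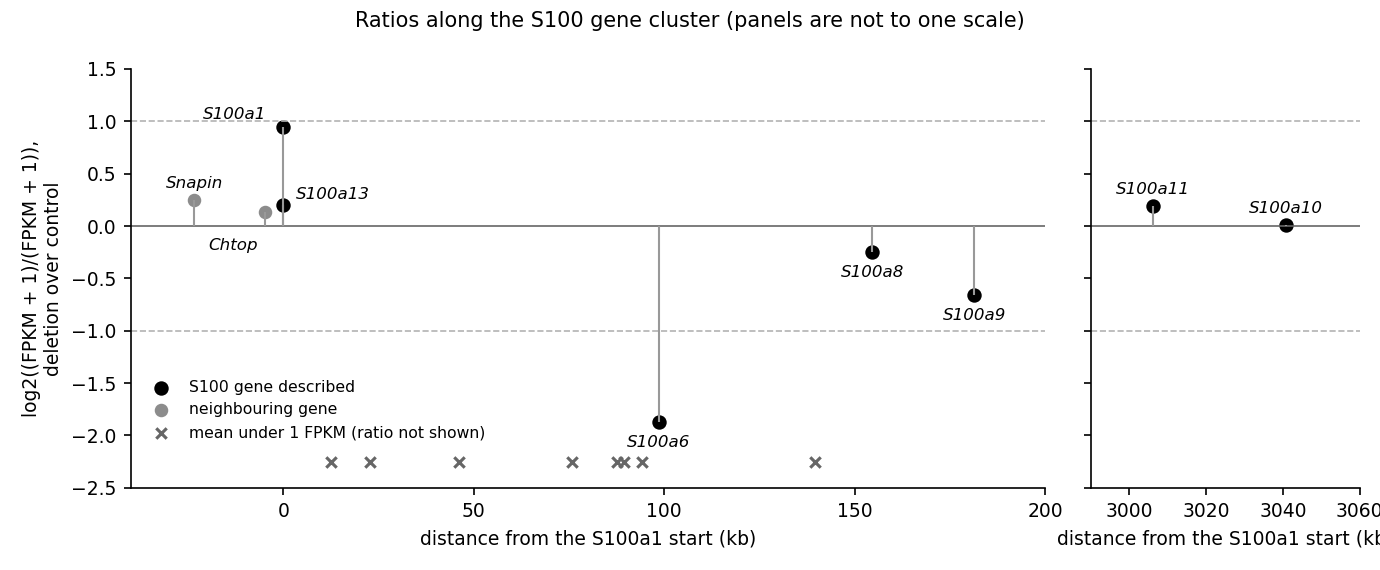
Log2((FPKM + 1)/(FPKM + 1)), deletion over control, against the distance of each gene's start from the start of S100a1 in kb, with the S100a11 and S100a10 region in a panel of its own and crosses for genes with a mean under 1 FPKM. Ratios are above 0 for S100a1 (0.94) and S100a13 (0.20) at one end and below 0 for S100a6 (-1.87), S100a8 (-0.25) and S100a9 (-0.66) at the other.

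Annexins are calcium-dependent membrane-binding proteins and the classical partners of S100a6, S100a10 and S100a11. Of 12 annexin genes 9 reached the minimum, 0 were at least 2-fold higher, 0 at least 2-fold lower, and the median log2(FPKM + 1) ratio was -0.024. Anxa2, the partner of S100a10, was at 8.53 FPKM in control HSCs and 7.22 FPKM in deletion HSCs, with a counting interval of the log2 ratio of -0.42 to -0.058. Anxa1, the partner of S100a11, had the lowest ratio of the list, at 33.7 FPKM in control HSCs and 25.5 FPKM in deletion HSCs. Its values did not come out as whole fragments. Anxa5, which binds phosphatidylserine, had the next lowest ratio, at 19.8 and 16.9 FPKM. The highest ratio was that of Anxa3, an annexin of neutrophils, at 7.01 FPKM in control HSCs and 10.5 FPKM in deletion HSCs. Anxa4 followed at 2.12 and 2.93 FPKM. The partner of an S100 gene did not always share its direction, as S100a11 was above 0 and Anxa1 below.

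Among 7 genes for intracellular partners, 4 reached the minimum, and 0 passed 2-fold in either direction. Cacybp, which encodes the calcyclin-binding protein, was at 52.4 FPKM in control HSCs and 79.6 FPKM in deletion HSCs, while S100a6 was lower there. Sugt1, a chaperone adaptor that binds S100A6, was at 4.43 and 4.78 FPKM in the same order. Ahnak, the scaffold bound by the S100A10 and annexin A2 complex, was at 5.08 FPKM in control HSCs and 3.12 FPKM in deletion HSCs. Myh9, the myosin heavy chain bound by S100A4, was at 50.9 FPKM and 40.9 FPKM. The cargo genes of S100A13, Fgf1 and Il1a, were under 1 FPKM, as was Syt1.

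Receptors for released calprotectin were low, apart from Bsg. Of 8 receptor and adaptor genes 5 reached the minimum and 0 passed 2-fold in either direction, with a median log2(FPKM + 1) ratio of -0.11. Tlr4, the main receptor for S100A8 and S100A9, was at 0.30 FPKM in control HSCs and 0.29 FPKM in deletion HSCs, and its partner Ly96 at 0.51 and 0.35 FPKM. Ager, the receptor for advanced glycation end products, was at 1.88 FPKM in control HSCs and 1.53 FPKM in deletion HSCs. Bsg (basigin), an S100A9 receptor with many other functions, was at 208 FPKM in control HSCs and 234 FPKM in deletion HSCs. Cd14 had the lowest ratio of the 5, at 7.76 FPKM in control HSCs and 3.70 FPKM in deletion HSCs, which is 2.10-fold lower on the plain ratio and short of 2-fold with the pseudocount of 1 FPKM. Mcam, an adhesion receptor that S100A8 and S100A9 bind, did not reach the minimum, at 0.53 FPKM in control HSCs and 0.018 FPKM in deletion HSCs. Its 31 and 1 fragments gave a log2 ratio of -4.91 with a counting interval of -10.3 to -2.32.

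Calprotectin also feeds arachidonic acid to the phagocyte NADPH oxidase. Of the 6 oxidase genes, 1 was at least 2-fold lower in deletion HSCs and 0 were higher, with a median log2(FPKM + 1) ratio of -0.15. Cybb, which encodes the catalytic subunit, was at 11.5 FPKM in control HSCs and 4.35 FPKM in deletion HSCs. Rac2, the GTPase of the complex, was highest at 64.7 FPKM in control HSCs and 76.2 FPKM in deletion HSCs. Cyba, the membrane partner of Cybb, was at 63.6 FPKM in control HSCs and 63.2 FPKM in deletion HSCs.

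Genes of other EF-hand proteins were read as a list of 16. All 16 reached the minimum, 0 passed 2-fold in either direction, and the lowest ratio was -0.46 against -1.87 for the 7 S100 genes. Cetn3 (centrin) was among the highest by ratio, at 13.5 FPKM in control HSCs and 17.4 FPKM in deletion HSCs. Capn2, a calpain, had the lowest ratio, at 1.91 FPKM in control HSCs and 1.11 FPKM in deletion HSCs, followed by Capn1 at 55.3 and 46.3 FPKM. The median ratio of the list was 0.082, with 11 of 16 above 0, and it turned to -0.063, with 7 of 16 above 0, when the libraries were brought to a common total.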

How the data were processed

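RNA from sorted bone marrow HSCs was sequenced as 150 bp paired-end reads, per the labels' protocols, with 1 library per genotype. The authors deposited a table of FPKM for each gene, named so in its title. Bowtie 0.12.2 and the build mm8 appear in the submitters' processing notes without a stated role, and the sources used here give neither the counting program nor the annotation. Symbols came from a table of gene names, S100a7l2 by its RefSeq synonym, and exon lengths and positions from GENCODE M21 (GRCm38), which covered 54494 of 54531 genes. FPKM was turned back into fragments where it fell within 0.02 of a whole number. Duplicate reads are not separate molecules, so intervals cover counting error only. Paralogs and overlapping genes can exchange or lose fragments.

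Deletion was set over control as log2((FPKM + 1)/(FPKM + 1)) and counted at 2-fold for genes whose mean reached 1 FPKM, plain ratios carry Clopper-Pearson intervals, and a ratio of 1 gene to another, compared between libraries, carries the exact conditional interval of the odds ratio (scipy 1.17.1). With 1 library per genotype no test was possible. The S100 genes and the lists were chosen with earlier results of these data known. Genes named were the 8 S100 genes, the 2 highest and 2 lowest of each partner list, and the 2 nearest genes for S100a6, S100a8 and S100a10; others, the marker genes set against S100a8 and S100a9, the exon-sharing count and the motifs were chosen after values were seen, and some genes the rule selects are not reported here. Promoter sequences are RefSeq's on GRCm38.p6. The computation was tested on simulated data. Alternatives were pseudocounts of 0.1 and 5 FPKM, other minimums, scalings and thresholds, and lists without 1 gene.

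B cell markers summed to 11.7 FPKM in control HSCs and 17.0 FPKM in deletion HSCs, T cell markers to 2.32 and 2.39 FPKM, erythroid markers to 1622 and 1949.9 FPKM (mostly Car1, at 1315 and 1629 FPKM, while Alas2 was 3.00-fold lower in deletion HSCs), and HSC markers to 108 and 94.9 FPKM.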

Additional observations from a re-analysis of the deposited data

How the results depend on the processing

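Directions of the S100 genes were the same under each pseudocount and scaling, except for S100a10, which turned from 0.0067 to -0.14 on a common total and to -0.061 when scaled without the genes of the mitochondrial genome. S100a6 ranged from -2.16 (common total) to -1.26 (pseudocount of 5 FPKM). The number of the 7 S100 genes past the threshold, 1 at 2-fold, was 3 at 1.5-fold (S100a1, S100a6 and S100a9) and 0 at 4-fold. Of all 12325 genes, 708 were higher and 749 lower at 1.5-fold, and 75 and 165 at 4-fold. The median log2 ratio of the S100 genes was -0.14 on a common total and -0.12 with S100a1, S100a11 or S100a13 left out of the list. It lay between -0.14 and 0.097 over the alternatives run. For the receptor list, 0 genes past 2-fold became 1 (Cd14) with a pseudocount of 0.1 FPKM, on a common total or at 1.5-fold. For the NADPH oxidase list and for the transcription factor list, 1 became 0 with a pseudocount of 5 FPKM and at 4-fold. For the intracellular partners, 0 became 1 at 1.5-fold. Over all genes, 305 higher and 417 lower of 12325 at 2-fold became 74 and 118 with a pseudocount of 5 FPKM, and 471 and 599 with 0.1 FPKM. On a common total they were 618 and 1182 of 15021 genes. They were 83 and 97 of 7658 genes at a minimum mean of 5 FPKM, and 428 and 683 of 54531 with no minimum. Changing the length of S100a6, an alternative added after seeing the data, gave -1.95. It leaves the plain ratio the same and acts through the pseudocount only. A common total rescales each library by its summed FPKM, 379052 in control HSCs and 419943 in deletion HSCs. The cause of the other changes was not tested, beyond that another threshold counts other genes. No paired analysis was possible because each genotype had 1 library. Depth limits short genes of low level, such as S100z, whose 5 and 3 fragments gave a counting interval of -3.38 to 1.67.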
